A study of Mus musculus with 25 samples.

Results

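The comparison described here is the difference between hepatoblastoma (HB) and liver in their transcriptional response to a diet with 10% dodecanedioic acid (DDDA). It used 20 of the 25 RNA-Seq libraries of the series, those whose read counts stand in 1 table of 36333 genes, and was computed as DDDA HBs minus standard diet HBs, minus the same contrast in livers. Each of the 4 groups held 5 libraries from FVB mice. NFD-Liver (3 females, 2 males) and DDDA-Liver (2 females, 3 males) were livers of mice that had received no injection, on the Normal Diet and on 10% DDDA for 3 to 4 weeks per the labels. NFD-Tumor (2 females, 3 males) and DDDA-Tumor (4 females, 1 male) were HBs on the same diets, raised by Sleeping Beauty vectors (SB_Del90+xloc+SB_YAP S127A in the labels) that carry Δ(90), a deletion mutant of β-catenin, and YAP S127A, a mutant of the Hippo pathway effector. The vectors were delivered by hydrodynamic tail vein injection, a route that transduces mainly hepatocytes, and the RNA came from regions of healthy-appearing tumor. The HB mice were injected as young adults, ages at sampling were not given in the sources used here, and 5 HBs of longer DDDA feeding (DDDA-LT) were not analysed here.

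Dicarboxylic acids such as DDDA are made in the liver when Cyp4a enzymes oxidise the terminal carbon of medium- and long-chain fatty acids (ω-oxidation), and they are shortened in peroxisomes, where Ehhadh catalyses the middle steps. Genes of ω- and peroxisomal oxidation are classic targets of PPARα, the nuclear receptor that fatty acids activate in hepatocytes. NRF2 is the transcription factor of the antioxidant and phase II response and drives glutathione synthesis, glutathione S-transferases and NADPH production. HBs are tumors of hepatocyte-like cells that are known for less fatty acid oxidation and more glycolysis than normal liver.

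Gene totals ranged from 16548771 to 29783324 counts per library (medians of 17243051 in NFD-Liver, 19858869 in DDDA-Liver, 18021311 in NFD-Tumor and 18910237 in DDDA-Tumor). A single flow cell carried every standard diet library, 2 others carried the DDDA libraries, and livers and HBs never shared a lane, so that diet and sequencing run cannot be told apart in either tissue. The 2 diet contrasts share no library. Defining hepatocyte markers were present in every group, with summed levels of 136060 to 194759 CPM (TMM-normalized counts relative to library size) in livers and 50073 to 89405 in HBs. The HB DT2264 stood apart, with 3510 CPM of stellate cell and fibroblast markers and 327 CPM of smooth muscle markers, against 365 to 810 and 14.2 to 41.0 CPM in standard diet HBs. No marker of these lists was at 0 throughout any group. The liver DL02 had 150 CPM of neutrophil markers, against 2.03 to 5.18 CPM in standard diet livers, where 1 of the 12 markers was at 0, and DT2277 and DT2264 were the highest HBs for the same markers. Airway and gland markers summed to 1.83 to 28.6 CPM in DDDA HBs and at most 0.132 CPM in standard diet HBs (1 and 6 of 8 markers at 0 in the group), and to at most 23.3 CPM in DDDA livers and 0 in standard diet livers. Erythroid markers reached 12677 CPM in DDDA HBs, whose range of 174 to 12677 overlapped the 507 to 2996 CPM of standard diet HBs. The part of these markers in the results was not tested. Counts that rest on these libraries are given with and without them, and a lower level in bulk tissue can mean fewer cells of a type or less RNA per cell, which cannot be told apart.

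No gene passed the test of the difference itself. Of 14502 genes tested in 1 fit of the 4 groups (edgeR quasi-likelihood F-test, Benjamini-Hochberg adjusted p under 0.05), the difference between the tissues was called for 0 genes (0% of those tested), and the smallest adjusted p was 0.13. The unadjusted p was under 0.05 for 877 genes (6.05%), 527 with a higher response in HBs (3.63%) and 350 with a lower one (2.41%), and DESeq2 called 11 genes. The diet response of HBs was called for 680 genes (4.69%), with 367 higher (2.53%) and 313 lower (2.16%) on DDDA. In livers it was called for 339 genes (2.34%), with 209 higher (1.44%) and 130 lower (0.896%). The spread in this fit is shared by all 4 groups. Fitted alone, the HB groups gave 42 calls (14 higher and 28 lower, 41 of them among the 680) and the liver groups 940 (547 higher and 393 lower, 300 of them among the 339). Most of the 680 HB calls, including many of genes named below, were thus lost when HBs were fitted alone.

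Where the diet response was called in both tissues it went the same way each time. The 131 genes called in both (0.903% of those tested) comprised 67 that rose (0.462%) and 64 that fell (0.441%), and 0 genes were called in opposite directions. The 5 DDDA libraries did not overlap the 5 standard diet libraries in either tissue for 106 of these 131 genes. Across all genes the groups failed to overlap in HBs for 649 (4.48%), in livers for 1206 (8.32%), in both tissues with the same direction for 212 (1.46%) and with opposite directions for 0. For 111 of the 131 (0.765% of genes tested) the 95% interval of the difference also lay within 1 log2 unit of 0, that is within a 2-fold change either way. That condition alone held for 7882 genes (54.4%). These 111 are the genes that were called in both tissues and also met that condition, 59 of them higher and 52 lower on DDDA. The margin of 1 log2 unit was wider than some of their responses.

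A further 549 genes were called in HBs only and 208 in livers only, but for 363 and 123 of these the interval of the difference lay within 1 log2 unit of 0. The difference reached an unadjusted p under 0.05 for 155 of the 549 and 85 of the 208. For most genes called in 1 tissue the difference itself missed even the unadjusted threshold. Of the 680 genes called in HBs, 633 had the same sign in livers, and of the 339 called in livers, 321 had the same sign in HBs. Over all 14502 genes the fold changes of the tissues had a Pearson r of 0.375 and a Spearman rho of 0.40, and 66.7% shared their sign. These values describe genes, which are not independent of each other, and both tissues share the change of sequencing run. The counts moved with single libraries. Without DT2264 the calls rose to 1238 in HBs, 591 in livers and 255 the same way in both, whereas without s2138 or s2139 the HB calls were 288 and 314. Liver calls fell to 116 without c7, 118 without c17, 129 without c12 or without DL03, 150 without DL04, 161 without DL05, 179 without DL01 and 220 without c1. Genes called the same way numbered 62 without c7, 65 without DL03, 66 without c17, 71 without c12, 75 without DL04, 76 without DL01, 79 without DL05 and 85 without s2139.

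**Figure D1:**
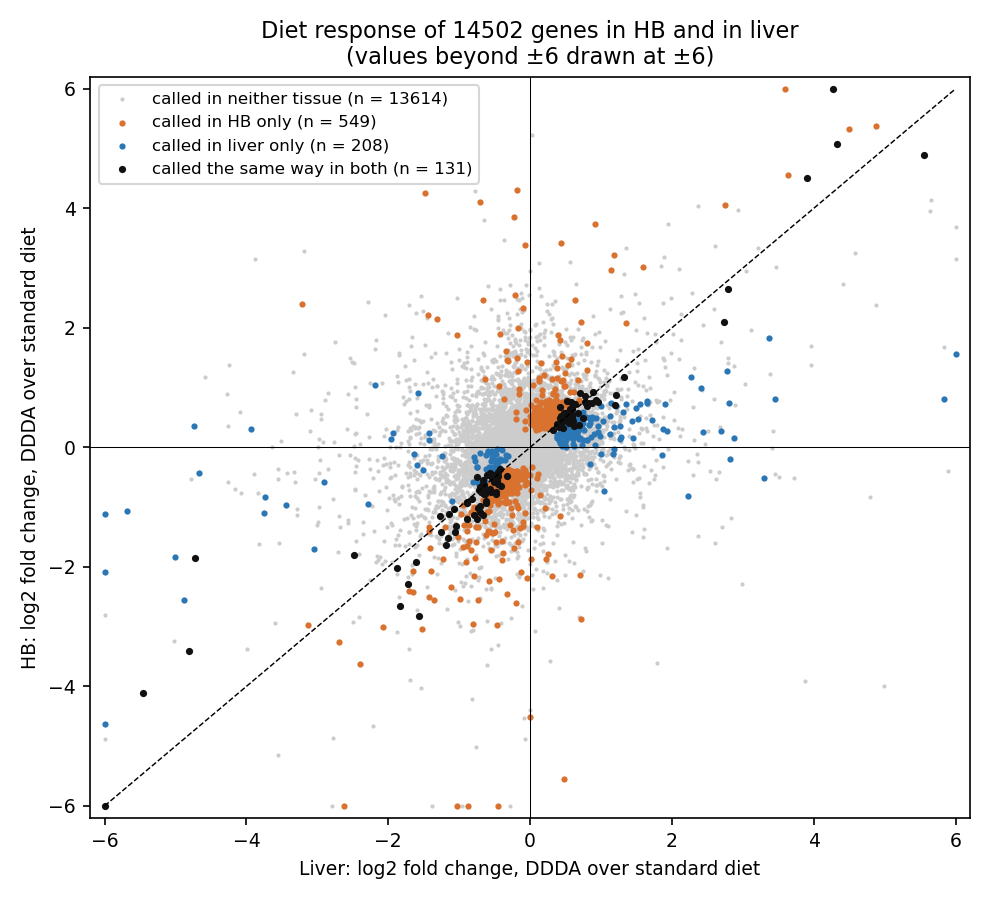
Log2 fold change of DDDA over standard diet for each of 14502 genes, in livers on the x axis and in HBs on the y axis, with values beyond 6 drawn at the edge. Black points are the 131 genes called the same way in both tissues and all lie in the lower left or upper right quadrant, orange points are 549 genes called in HBs only, blue points 208 called in livers only, and grey points genes called in neither.

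Among genes with the interval of the difference within 1 log2 unit, those that rose most in both tissues had no single known function. Some genes with a wider interval, such as the γ-protocadherin Pcdhgc3, rose more in both tissues and were not ranked. Lars2, the mitochondrial leucyl-tRNA synthetase, was read in livers at 76.8, 78.5, 98.6, 110.3 and 133 CPM on the standard diet and 175, 205, 270.2, 276 and 318 CPM on DDDA. In HBs it was read at 40.5, 54.6, 62, 64.4 and 103 CPM and at 107, 107, 139.7, 146 and 232 CPM. The groups did not overlap in either tissue. Lars2 rose by 1.17 ± 0.25 log2 units in HBs (± SE, adjusted p = 0.014) and by 1.32 ± 0.26 in livers (adjusted p = 0.013), with a difference of -0.15 (95% interval -0.90 to 0.59).

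Ubqln2, a ubiquitin-like shuttle of the proteasome, rose by 0.93 ± 0.15 in HBs and 0.89 ± 0.15 in livers (log2, adjusted p = 0.002 and 0.0061). Its mean level went from 25.9 ± 4.2 to 49.3 ± 10.4 CPM in HBs and from 22.8 ± 2.55 to 42.2 ± 6.52 CPM in livers (SD, n = 5 each), and the difference between the tissues was 0.04 (-0.40 to 0.47). Grina, a membrane protein of the family that guards against cell death from calcium release, ranged over 121 to 153 CPM in standard diet livers and 208 to 302 in DDDA livers. In HBs it ranged over 74.4 to 119 and 144 to 194 CPM, a rise of 0.76 against 0.96 in livers. Also in this set were Nt5dc1, a 5'-nucleotidase domain protein (0.79 in HBs and 0.93 in livers), Mapre3, a microtubule plus-end protein (0.87 and 0.78), and Manea, a Golgi mannosidase (0.76 and 0.78). Rbpms, an RNA-binding protein (0.75 and 0.81), and Baiap2l1, which links membranes to actin (0.74 and 0.87), completed it. For these 8 genes the intervals of the difference ran at most from -0.90 to 0.59. Only genes with an interval within 1 log2 unit of 0 were ranked. In the fit of the HB groups alone the HB rise of each missed the threshold (adjusted p = 0.06 for Ubqln2 to 0.14 for Baiap2l1). The liver call of Mapre3 was lost without any 1 of c12, c17, c7, DL01, DL03, DL04 or DL05 and the calls of Baiap2l1 held in 15 (HBs) and 14 (livers) of 20 fits without 1 library.

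**Figure D2:**
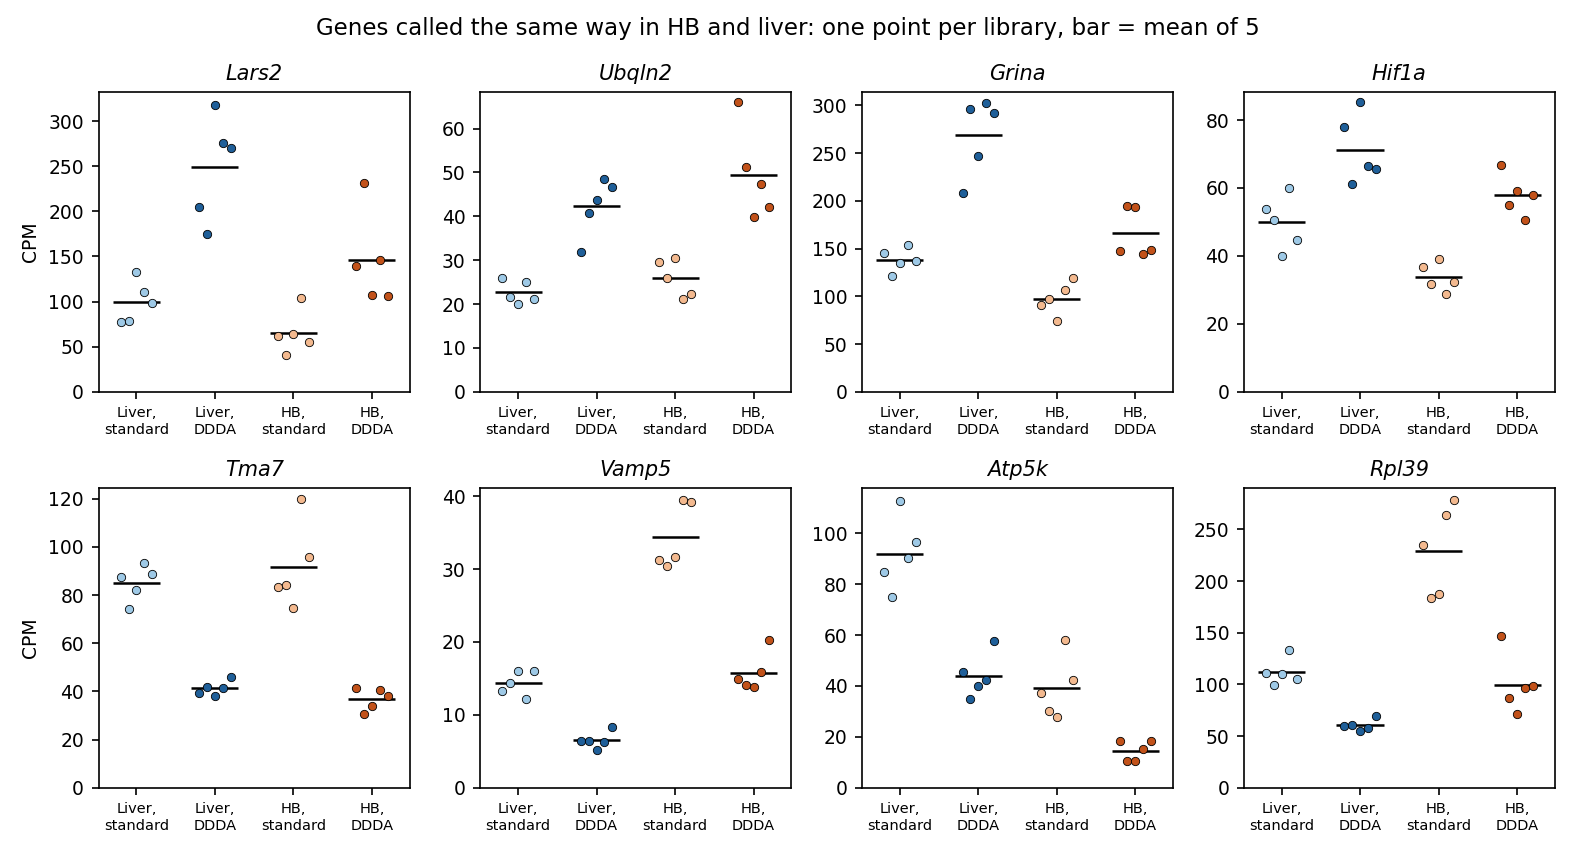
Level in CPM (linear y axis from 0) in each of 20 libraries for 8 genes called the same way in both tissues, with 1 point per library and a bar at the mean of 5, for livers and HBs on the standard and DDDA diets. In the upper row (Lars2, Ubqln2, Grina and Hif1a) each DDDA group lies above its standard diet group, and in the lower row (Tma7, Vamp5, Atp5k and Rpl39) below it.

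By the same ranking, the 8 genes that fell most in both tissues were Tma7, Vamp5, Rpl34, Rpl39, Atp5k, Lsm7, Polr2k and Tmem258. Genes with a wider interval of the difference, such as Hist1h2ao and Pcdhgc3, had larger shared changes and were not ranked. Tma7, a small ribosome-associated protein, was read at 74.2, 82.1, 87.5, 88.7 and 93.1 CPM in standard diet livers and 38.1, 39.5, 41.6, 41.9 and 46.1 CPM in DDDA livers. The HBs gave 74.6, 83.5, 84.4, 95.9 and 120 CPM on the standard diet and 30.5, 34.1, 38, 40.8 and 41.5 CPM on DDDA. The ranges of the tissues overlapped on either diet. Tma7 fell by 1.31 log2 units in HBs (adjusted p = 9.6e-06) and by 1.04 in livers (adjusted p = 0.00073), with SEs of 0.12 and a difference of -0.27 (-0.62 to 0.08). Vamp5, a vesicle fusion protein that is more abundant in HBs, went from 14.3 ± 1.7 to 6.53 ± 1.16 CPM in livers and from 34.4 ± 4.48 to 15.8 ± 2.6 CPM in HBs, changes of -1.14 and -1.12 that differed by 0.02 (-0.38 to 0.41).

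The others were Rpl34 (-1.42 in HBs and -1.26 in livers) and Rpl39 (-1.20 and -0.88), proteins of the large ribosomal subunit, and Atp5k, a subunit of ATP synthase (-1.42 and -1.06). Lsm7, part of the ring that binds U6 RNA (-1.04 and -1.07), Polr2k, a subunit shared by the nuclear RNA polymerases (-0.93 and -0.89), and Tmem258, a subunit of oligosaccharyltransferase (-0.92 and -0.89), fell by similar amounts. All 16 genes of the 2 sets kept DDDA and standard diet libraries apart in both tissues, as did 1.46% of all genes tested, with the same direction in both. The calls of the 8 that fell held in each of 20 fits without 1 library. The 16 were chosen for large changes called in both tissues, so that neither result is independent support. In the fit of the HB groups alone Polr2k and Rpl39 missed the threshold (adjusted p = 0.057 and 0.053). Ribosomal protein genes have many processed copies in the genome, so that their counts are uncertain.

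The oxidative phosphorylation and ribosomal protein lists were the groups with the most shared falls. Over all genes tested, 2.16% fell in HBs, 0.896% in livers and 0.441% in both. Of 75 nuclear genes of oxidative phosphorylation tested, 15 fell and 0 rose in HBs. In livers 6 fell and 0 rose, and 6 fell in both tissues. The 6 were Atp5k and 5 subunits of complex I, Ndufs6, Ndufa3, Ndufb2, Ndufs5 and Ndufc1. Ndufs6 fell from 76.1 ± 23.2 to 33.1 ± 5.63 CPM in HBs and from 119.5 ± 7.44 to 71.2 ± 13.7 CPM in livers. The median over the list was -0.32 in HBs and -0.10 in livers, beside medians over all genes of 0.06 and -0.02. Of 82 cytosolic ribosomal proteins, 23 fell in HBs and 5 in livers, with medians of -0.44 and -0.18. The 5 that fell in both were Rpl34, Rpl39, Rpl35a, Rpl29 and Rpl36al. Rpl35a changed by -1.52 in HBs and -1.16 in livers.

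Genes that fell in both tissues had short transcripts. The median exon length was 1366 bases over the 64 that fell, 3886 over the 67 that rose and 3834 over all genes tested. With a trend of fold change against exon length removed, the medians of the oxidative phosphorylation list became 0.06 in HBs and 0.07 in livers, and those of the cytosolic ribosomal proteins -0.08 and -0.03. Of the ribosomal proteins, 7 then fell and 2 rose in HBs. Calls for genes that fell in both went from 64 to 51, and for genes that rose in both from 67 to 91. Length, sequencing run and diet cannot be told apart for these genes.

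The single-gene contrasts of smallest p between the tissues did not pass the adjusted threshold, and the genes described here were chosen after their values were seen. Bhlhe40, a transcriptional repressor of the circadian and hypoxia responses, had the smallest p of all. In HBs it was read at 61.8, 62.6, 66.5, 66.7 and 108 CPM on the standard diet and 112, 125, 186, 188 and 196 CPM on DDDA. In livers it was read at 166, 168, 178, 206 and 322 CPM and 110.3, 114, 122, 146 and 175 CPM. DDDA HBs lay above standard diet HBs without overlap, whereas DDDA livers overlapped the lower standard diet livers. Bhlhe40 rose by 1.14 ± 0.22 in HBs (adjusted p = 0.0065) and had a value of -0.64 ± 0.22 in livers (adjusted p = 0.12), a difference of 1.78 (1.13 to 2.43, adjusted p = 0.13). The standard diet HB s2139 was far above the other 4, and without it the difference was called (adjusted p = 0.031).

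Rab3d, a GTPase of regulated secretion, was read at 10.1, 11, 12.3, 12.3 and 12.8 CPM in standard diet livers and 17.5, 19.7, 22.2, 22.3 and 23.2 CPM in DDDA livers, with no overlap. Standard diet HBs were at 35.1, 42.6, 54, 54.2 and 55.6 CPM and DDDA HBs at 32.1, 34.3, 39.8, 44.2 and 49 CPM, and these overlapped. It rose in livers by 0.84 ± 0.14 (adjusted p = 0.0062) and had a value of -0.28 ± 0.14 in HBs, a difference of -1.12 (-1.53 to -0.70, adjusted p = 0.13) that was called without s2138 (adjusted p = 0.042). Adora1, the adenosine A1 receptor, rose in livers, where the standard diet range was 20.8 to 40.1 CPM and the DDDA range 48.8 to 61.9 CPM (1.05, adjusted p = 0.032). In HBs it ranged over 48.8 to 76.7 CPM on the standard diet and 21.9 to 59.3 on DDDA (-0.73, adjusted p = 0.086). It was called in opposite directions without DT3168 or without DT2277, and its liver call held in 12 of 20 fits without 1 library.

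Psat1, the aminotransferase of serine synthesis, was near 1 CPM in standard diet livers (0.553, 0.911, 0.932, 1.1 and 1.15) and higher in DDDA livers (1.53, 1.75, 2.13, 7.97 and 8.28), where DL01 and DL02 were the highest. Standard diet HBs were at 15.2, 18.5, 19, 24.6 and 28.9 CPM and DDDA HBs at 7.03, 10.3, 11.6, 11.7 and 20 CPM. The rise in livers was 2.22 ± 0.47 (adjusted p = 0.019, lost without c17 or DL01), the value in HBs -0.81 ± 0.41 (adjusted p = 0.25), and the difference -3.03 (-4.32 to -1.74). Sgk1, a kinase induced by serum and glucocorticoids, was read at 12.6, 15.4, 16.4, 16.8 and 18.4 CPM in standard diet HBs and 28.6, 55.4, 62.4, 64.7 and 191 CPM in DDDA HBs, a rise of 2.33 ± 0.37 (adjusted p = 0.002) with no overlap. In livers it ranged over 16.5 to 45.5 and 21.1 to 33.8 CPM (-0.10, adjusted p = 0.92), and the difference was 2.44 (1.38 to 3.50).

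G0s2, an inhibitor of the lipase that opens lipid droplets, fell in livers from 28.8, 37.4, 72.9, 98.8 and 120 CPM to 10.6, 20.2, 26.2, 29.4 and 33.3 CPM (-1.58, adjusted p = 0.037, lost without any 1 of 8 liver libraries). The HBs were at 6.25, 11.2, 12.9, 13.4 and 13.5 CPM on the standard diet and 9.66, 20.2, 20.3, 25.6 and 31.9 CPM on DDDA (0.91, adjusted p = 0.17), giving a difference of 2.49 (1.35 to 3.63). Angptl8, a feeding-induced inhibitor of lipoprotein lipase, showed a like pattern, with a fall of 1.93 in livers (adjusted p = 0.031), 0.24 in HBs and a difference of 2.17 (0.86 to 3.47). Bmp6, the ligand that induces hepcidin, had a difference of 2.19 (1.13 to 3.25), with 0.94 in HBs and -1.25 in livers, neither called, and was called in opposite directions without DT2264. Myh14, a non-muscle myosin heavy chain, rose in HBs by 1.03 ± 0.24 (adjusted p = 0.021, lost without s2138, s2139 or DT2270) and was at -0.44 in livers, and its difference of 1.47 (0.76 to 2.19) was called without DT2264 (adjusted p = 0.037). DESeq2 called Bhlhe40, Rab3d, Psat1, Adora1, Sgk1, G0s2, Nebl, Mup1, Tubb2b, Rtn4r and Bmp6 for the difference. With each tissue fitted alone by edgeR, the HB calls of Bhlhe40, Sgk1 and Myh14 were lost (adjusted p = 0.06, 0.057 and 0.15). Bmp6 and Myh14 were then called lower in livers (-1.24 and -0.43, adjusted p = 0.026 and 0.045). The liver calls of Rab3d, Adora1, Psat1 and G0s2 held (adjusted p = 0.0056, 0.008, 0.037 and 0.044).

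**Figure D3:**
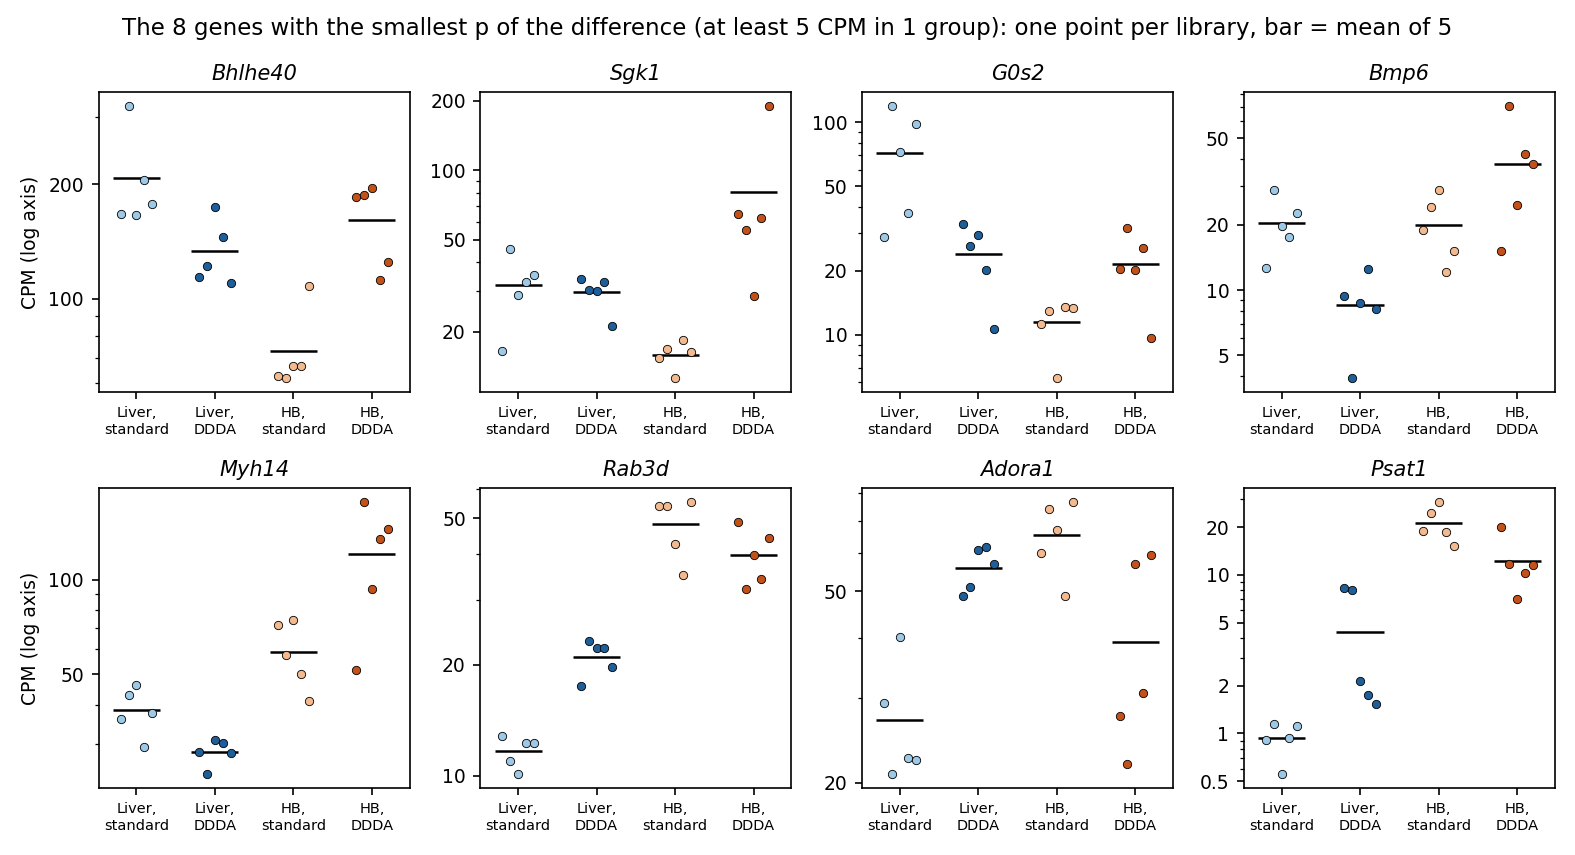
Level in CPM (log y axis) in each of 20 libraries for the 8 genes, of at least 5 CPM in 1 group and other than predicted genes, with the smallest p for the difference, with 1 point per library and a bar at the mean of 5. The difference is positive for Bhlhe40, Sgk1, G0s2, Bmp6 and Myh14 and negative for Rab3d, Adora1 and Psat1, from -3.03 (Psat1) to 2.49 (G0s2) log2 units, and passed the adjusted threshold for none of them. The HB groups overlap for each of these genes but Bhlhe40 and Sgk1.

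The PPARα targets gave few calls in HBs and 0 for the difference. Of 71 tested, 7 rose (1.44% of all genes tested did) and 1 fell in livers, and 1 rose (2.53% of all genes) and 0 fell in HBs, with median fold changes of 0.38 and 0.20 log2 units. The difference reached an unadjusted p under 0.05 for 10 genes with a lower and 2 with a higher response in HBs (2.41% and 3.63% of all genes). DT2264 had the lowest level of the list among DDDA HBs (5.29 mean log2 CPM, against 5.86 to 6.16 in the others). Without it 7 of the 71 rose in HBs and 10 in livers, and the median in HBs was 0.33. Calls over all genes tested also rose in both tissues in that fit.

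Ehhadh, the bifunctional enzyme of peroxisomal oxidation that the study examined, was read at 268, 315, 368, 475 and 621 CPM in standard diet livers and 920.3, 1018, 1070, 1701 and 1725 CPM in DDDA livers. In HBs it was read at 45, 49, 49.4, 56.4 and 62.7 CPM and 35.8, 72.6, 88.2, 127 and 128 CPM. The liver groups did not overlap, and of the DDDA HBs DT2264 alone fell below every standard diet HB. Ehhadh rose by 1.65 ± 0.30 in livers (adjusted p = 0.01) and was at 0.78 ± 0.30 in HBs (adjusted p = 0.13), and the difference of -0.87 (-1.75 to 0.01, unadjusted p = 0.052) did not pass. Without DT2264 the value in HBs was 1.0 (adjusted p = 0.023).

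Cyp4a10 and Cyp4a14, the ω-hydroxylases that begin the pathway, varied widely between libraries of a group and were not called. Cyp4a14 was read at 2.03, 2.05, 99, 194 and 343 CPM in standard diet livers, where both values near 2 came from males, and at 483, 880, 899, 949.6 and 1688 CPM in DDDA livers. Standard diet HBs lay at 1.72, 2.73, 3.21, 3.83 and 6.05 CPM and DDDA HBs at 1.08, 3.73, 44.9, 86.3 and 141 CPM. The highest DDDA HBs reached 141 and 86.3 CPM while DT3167 stayed within the standard diet range and DT2270 (1.08 CPM) lay below it. The diet values were 2.93 ± 1.15 in livers (adjusted p = 0.18) and 3.98 ± 1.22 in HBs (adjusted p = 0.063), with a difference of 1.04 (-2.15 to 4.24). With sex as a covariate they were 4.85 (adjusted p = 0.039) and 2.21 (adjusted p = 0.34). Cyp4a10 was at 2.13 in livers and 1.79 in HBs, neither called, with a difference of -0.34 (-3.25 to 2.57). With sex as a covariate Cyp4a10 was at 3.71 in livers (adjusted p = 0.059) and 0.22 in HBs (adjusted p = 0.93), and the differences of Cyp4a10 and Cyp4a14 were -3.49 and -2.64, neither called. The estimates of both genes thus depended on how sex was treated. Cyp4a genes are close copies of each other, so that reads may be shared between them.

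Fgf21, a hormone that the fasted liver secretes, showed the largest liver rise among the named PPARα targets. It was read at 0.246, 0.338, 0.424, 0.456 and 0.622 CPM in standard diet livers and 1.67, 2.44, 3.99, 6.39 and 8.5 CPM in DDDA livers. The HBs were at 2.39, 3.89, 5.75, 6.27 and 8.11 CPM on the standard diet and 4.53, 5.68, 6.08, 6.65 and 23.5 CPM on DDDA, so that standard diet HBs already lay at the level of DDDA livers. The rise was 3.45 ± 0.57 in livers (adjusted p = 0.0056, held in all 20 fits without 1 library), the value in HBs 0.81 ± 0.47 (adjusted p = 0.33), and the difference -2.64 (-4.17 to -1.12, adjusted p = 0.61). Vnn1, a pantetheinase, ranged over 0.424 to 6.14 CPM in standard diet and 4.86 to 66.1 CPM in DDDA livers (2.87, adjusted p = 0.028) and over 41.5 to 99 and 63.3 to 122 CPM in the HBs (0.16). DL01 and DL02 were the highest livers for Vnn1, and its liver call held in 14 of 20 fits without 1 library and was lost without DL02 (2.17, adjusted p = 0.072). Acot1, a cytosolic acyl-CoA thioesterase, Retsat, retinol saturase, and Hadhb, a subunit of the mitochondrial trifunctional protein, rose in livers by 1.45, 1.12 and 0.52. In HBs they were at 0.16, 0.23 and 0.34. Their liver calls held in 9, 14 and 14 of 20 fits without 1 library.

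Cd36, the fatty acid translocase, had nearly equal estimates in both tissues, 1.76 ± 0.56 in HBs (adjusted p = 0.073) and 1.77 ± 0.56 in livers (adjusted p = 0.1), neither of them called. With each tissue fitted alone, Cd36 was called in HBs (1.74, adjusted p = 0.014) and not in livers (1.80, adjusted p = 0.15). The interval of the difference (-1.61 to 1.59) was too wide to place the tissues within a 2-fold change of each other. Its 5 DDDA HBs (167, 178, 179, 197 and 302 CPM) lay above the 5 standard diet HBs (46.9 to 89 CPM). Among 37 genes of peroxisomal FAO, 1 rose in livers (Ehhadh, beside 1.44% of all genes) and 0 in HBs (2.53%), with medians of 0.37 and 0.20. Of 38 genes of mitochondrial β-FAO, Hadhb rose in livers and Etfa fell in HBs, with medians of 0.26 and 0.07. The 10 genes of ketone body synthesis and use gave 0 calls in either tissue (2 and 2 at an unadjusted p under 0.05, and 0 and 1 by DESeq2 in HBs and livers), with 0 and 2 of them at an unadjusted p under 0.05 for a higher and a lower response in HBs.

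Promoters bear on these lists because the receptor and NRF2 bind known elements. Windows of 300 bases, from 250 before to 50 after the transcript start (RefSeq, GRCm38.p6), were searched on both strands for AGGNCA followed by any base and again AGGNCA, the direct repeat that PPARα binds, and for TGACNNNGC, the core of the antioxidant response element. The first was found in 0.381% of 32851 promoters and in 1 of the 55 PPARα targets with a promoter in the table. That gene is Fabp1, the liver fatty acid-binding protein, and it is shown because it is the single match. The match lies 67 bases before the start on the minus strand of chr6:71199629-71199928 (plus strand gene) and is in capitals.
Fabp1: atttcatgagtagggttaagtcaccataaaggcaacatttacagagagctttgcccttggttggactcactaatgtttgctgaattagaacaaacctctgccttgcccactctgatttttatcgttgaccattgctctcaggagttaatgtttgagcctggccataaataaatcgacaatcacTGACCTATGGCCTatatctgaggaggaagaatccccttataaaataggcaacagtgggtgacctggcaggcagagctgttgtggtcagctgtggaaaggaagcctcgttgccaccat
Fabp1 itself was at 0.12 in livers and -0.39 in HBs, neither called, with 2527 to 4539 CPM in DDDA livers and 138 to 704 CPM in DDDA HBs. None of the called PPARα targets with a promoter in the table held the full repeat within this window.

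The antioxidant core TGACNNNGC was found in 12.4% of all promoters, in 16.8% of tested genes with a promoter, in 11 of 31 NRF2 targets (35.5%) and in 6 of 55 PPARα targets (10.9%). Among genes called the same way in both tissues it was found in 9 of 44 that rose (20.5%) and in 12 of 49 that fell (24.5%). Srxn1, sulfiredoxin, and Gclm, the modifier subunit of the ligase that begins glutathione synthesis, are shown with the match in capitals. That of Srxn1 starts at base 29 of the transcript (chr2:152105274-152105573) and that of Gclm 134 bases before it (chr3:122245307-122245606), both for plus strand genes and on the minus strand.
Srxn1: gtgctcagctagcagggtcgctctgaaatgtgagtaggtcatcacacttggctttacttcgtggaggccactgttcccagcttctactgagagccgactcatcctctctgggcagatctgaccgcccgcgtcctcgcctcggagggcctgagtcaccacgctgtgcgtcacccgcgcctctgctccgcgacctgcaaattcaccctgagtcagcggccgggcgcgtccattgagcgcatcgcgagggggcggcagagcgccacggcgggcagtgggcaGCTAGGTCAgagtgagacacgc
Gclm: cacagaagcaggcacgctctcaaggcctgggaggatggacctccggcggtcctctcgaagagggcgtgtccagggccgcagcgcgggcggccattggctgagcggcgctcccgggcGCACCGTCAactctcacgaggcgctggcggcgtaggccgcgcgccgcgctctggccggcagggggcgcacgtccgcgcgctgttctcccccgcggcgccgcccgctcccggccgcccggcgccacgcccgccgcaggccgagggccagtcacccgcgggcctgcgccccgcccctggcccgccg

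The NRF2 targets gave rises and no falls in both tissues, and whether the counts differ between the tissues was not tested. Of 36 tested, 6 rose and 0 fell in livers, and 2 rose and 0 fell in HBs, beside 1.44% and 2.53% of all genes that rose in livers and HBs, and no gene was called in both. The medians were 0.61 and 0.28. Without DT2264 the list had 11 rises in livers and 7 in HBs, in a fit where calls over all genes tested also rose in both tissues. Gclc, the catalytic subunit of the ligase, was read at 319, 326, 353, 394 and 479 CPM in standard diet livers and 578, 622, 826, 839.5 and 846 CPM in DDDA livers. The standard diet HBs gave 128, 132, 162, 167 and 170.1 CPM and the DDDA HBs 129.6, 172, 179, 179.6 and 209 CPM. The liver groups were separate and the HB groups overlapped. Gclc rose by 0.99 ± 0.16 in livers (adjusted p = 0.0054) and was at 0.20 ± 0.16 in HBs (adjusted p = 0.5), with a difference of -0.79 (-1.26 to -0.32) whose adjusted p was 0.61.

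Srxn1 rose in livers by 1.55 ± 0.36 (adjusted p = 0.032) and was at 0.73 in HBs. Its highest liver was DL01 at 354 CPM, the other DDDA livers lay between 75.6 and 88.8 CPM and the standard diet livers between 43.5 and 53.2 CPM. Gclm was at 0.70 in livers (adjusted p = 0.065) and 0.36 in HBs (adjusted p = 0.3). Gsta1, Gstm1 and Gstm4, glutathione S-transferases whose close copies make their counts uncertain, rose in livers by 3.37, 1.35 and 1.0 and were at 1.83, 0.72 and 0.69 in HBs. Tkt, transketolase, rose in livers by 0.79 and was at 0.50 in HBs, and its call held in 5 of 20 fits without 1 library. The liver calls of Srxn1, Gsta1 and Gstm1 held in 15, 13 and 11 of them.

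Both NRF2 targets that rose in HBs did so without a liver call. Abcc3, an efflux pump of the basolateral membrane, was read at 64.8, 68, 82.4, 101 and 110.2 CPM in standard diet HBs and 168, 168, 208, 212 and 251 CPM in DDDA HBs, a rise of 1.24 ± 0.18 (adjusted p = 0.0014). In livers it ranged over 248 to 479.9 CPM and 472 to 544 CPM (0.49, adjusted p = 0.16), and the difference was 0.75 (0.21 to 1.29). Pgd, of the pentose phosphate pathway, rose by 0.77 in HBs (adjusted p = 0.0053) and was at 0.26 in livers. Nqo1, the quinone oxidoreductase that the study names, was at 0.77 ± 0.43 in HBs (adjusted p = 0.31) and 0.66 ± 0.43 in livers (adjusted p = 0.47), with 4.14 to 8.02 and 6.4 to 16.8 CPM in HBs, which overlapped, and a difference of 0.11 (-1.16 to 1.37). The study reports a significant increase of Nqo1 in DDDA HBs from FPKM values, a measure unlike the counts fitted here. Aldh1a1, a retinal dehydrogenase, rose in livers by 1.19 and was at 0.34 in HBs. Cyp39a1, an oxysterol hydroxylase of bile acid synthesis, rose in livers by 1.52 and was at 0.48 in HBs.

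**Figure D4:**
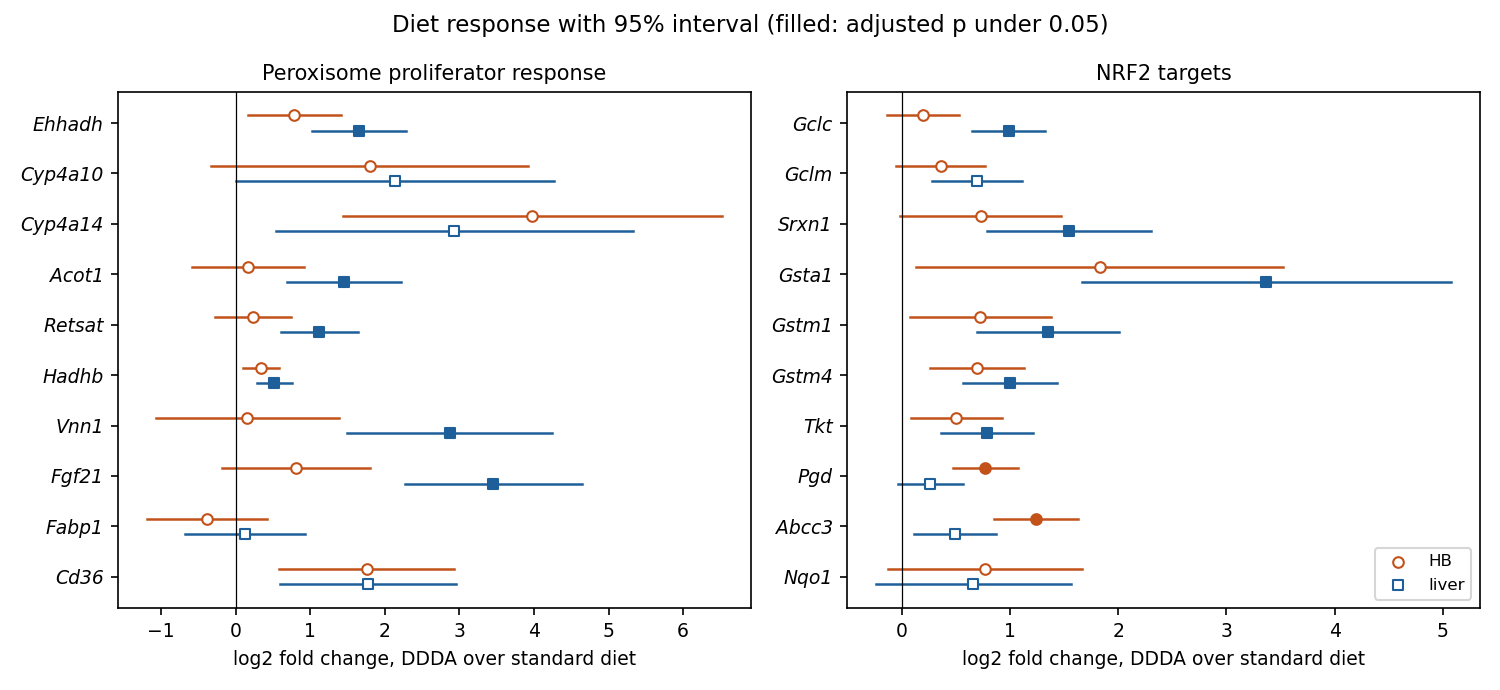
Log2 fold change of DDDA over standard diet with its 95% interval (x axis) for 10 genes of the peroxisome proliferator response (left) and 10 NRF2 targets (right), in HBs (orange circles) and livers (blue squares), filled where the adjusted p was under 0.05. Most filled symbols are liver values, such as Fgf21 at 3.45 and Gclc at 0.99, whereas Pgd and Abcc3 are filled in HBs (0.77 and 1.24). Apart from those the study names, the genes were chosen after their values were seen, so that the share of filled symbols reflects the choice. The 1 PPARα target that rose in HBs is not in the left panel.

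Hif1a, the oxygen-regulated subunit of HIF, was the member of the hypoxia list called in both tissues. It was read at 40.1, 44.7, 50.5, 53.8 and 60.1 CPM in standard diet livers and 61, 65.5, 66.3, 77.8 and 85.4 CPM in DDDA livers. In HBs it was read at 28.7, 31.7, 32.4, 36.7 and 39.1 CPM and 50.5, 54.9, 58.1, 59.1 and 66.7 CPM. The groups were separate in both tissues. The rise was 0.78 ± 0.12 in HBs (adjusted p = 0.002) and 0.52 ± 0.12 in livers (adjusted p = 0.034, held in 12 of 20 fits without 1 library), with a difference of 0.26 (-0.10 to 0.63). Egln3, a prolyl hydroxylase that marks HIF for destruction, was read at 12.4, 15.1, 16.8, 17.4 and 20.6 CPM in standard diet HBs and 36.5, 42.3, 42.7, 80.8 and 102 CPM in DDDA HBs, a rise of 1.89 ± 0.26 (adjusted p = 0.00094). In livers it was at 0.40 ± 0.25 (adjusted p = 0.46), and the difference was 1.49 (0.74 to 2.23).

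Of 29 hypoxia and HIF targets, 6 rose in HBs and 1 in livers, and of 28 genes of glycolysis 3 rose in HBs and 0 in livers, with 0 falls in either list and tissue. Over all genes tested 2.53% rose in HBs and 1.44% in livers. The glycolysis genes called in HBs were Aldoa, aldolase (1.16 in HBs and 0.38 in livers), Eno1, enolase (1.02 and 0.48), and Pgam1. With each tissue fitted alone, the HB calls of Aldoa and Eno1 were lost (adjusted p = 0.21 and 0.16), and Eno1 was called in livers (adjusted p = 0.047). Aldoa reached 545 CPM in DT2264 against 265 CPM in the next DDDA HB. DT2264 had the highest level of both lists of all 20 libraries. Without it the median over glycolysis in HBs went from 0.38 to 0.09 and its difference from 0.53 to 0.14. The median over hypoxia and HIF targets in HBs went from 0.42 to 0.01. Glycolysis then gave 5 rises in HBs and hypoxia and HIF targets 6, while HB calls over all genes tested also rose. Stellate cell, fibroblast and smooth muscle markers were also highest in DT2264, and their part in the list medians was not tested. Without DT2264 the rise of Egln3 was 1.78 (adjusted p = 0.0013) and that of Hif1a 0.73 (adjusted p = 0.0033).

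The acute phase values of the livers rested on 1 library. Saa1, serum amyloid A, was read at 14.9, 30.7, 40.8, 53.4 and 236 CPM in standard diet livers and 11.2, 13.9, 22.9, 46.4 and 5427 CPM in DDDA livers, the highest being DL02. Values in HBs were 8.17, 9.02, 22.8, 64.5 and 654 CPM on the standard diet and 1.65, 4.41, 11.9, 15.9 and 16.7 CPM on DDDA. The liver value was 3.88 (adjusted p = 0.23) with DL02 and -1.67 without it. Its neighbour Saa2 went from 5.0 to -1.31, and Lcn2, lipocalin 2, was read at 1200 CPM in DL02 and at most 20.9 CPM in the other livers. The difference for Lcn2 was -4.16 (-8.18 to -0.14) with DL02 and 1.09 without it. Over the 27 acute phase genes tested edgeR called 0 in either tissue, DESeq2 called 1 in HBs and 3 in livers, and the unadjusted p was under 0.05 for 5 and 11. The liver median was 1.05 with and -0.04 without DL02, and that of the difference -0.72 and 0.09. Neutrophil markers were high in the same liver (150 CPM), and their part in these values was not tested. Saa1 and Saa2 are near-identical copies and their counts are uncertain.

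The integrated stress response list holds known targets of ATF4, whose activity was not measured. Of 33 genes of this list tested, Psat1 and Fgf21 rose in livers (1.44% of all genes did) and Shmt2 in HBs (2.53%). The medians were 0.29 in livers and 0.15 in HBs, and the difference reached an unadjusted p under 0.05 in 5 genes with a lower and 0 with a higher response in HBs. Igfbp1, a stress- and fasting-induced binding protein of insulin-like growth factors, rose in livers, from a range of 1.76 to 5.62 CPM to one of 9.08 to 44.7 CPM (2.78, adjusted p = 0.0088) and was at 1.27 in HBs (adjusted p = 0.11). Igfbp1 was far higher in HBs on either diet (129.6 to 242 and 201 to 734 CPM).

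The lists of sex-biased liver genes had some of the largest median differences, and sex was not balanced between the groups. Mup1, a major urinary protein of male liver, ranged over 1.19 to 3254 CPM in standard diet HBs and 0.0434 to 12.5 CPM in DDDA HBs, and over 257 to 79527 and 2746 to 34131 CPM in livers. It fell by 8.11 in HBs (adjusted p = 0.035) and was at -0.45 in livers. With sex as a covariate the HB value was -3.27 (adjusted p = 0.21). The Mup genes are near-identical copies, and their counts are uncertain. Over 25 male-biased liver genes the median difference was -1.36, and 0.00 with sex as a covariate. Over 31 female-biased liver genes it was 1.98, and -0.55 with that covariate.

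Targets of β-catenin, which Δ(90) drives in these HBs, included the falls of Glul and Notum in HBs. Glul, glutamine synthetase, was read at 840.1, 1911, 2065, 3399 and 5038 CPM in standard diet HBs and 196, 299, 686, 958 and 1690 CPM in DDDA HBs. In livers it ranged over 686 to 838 and 777 to 922 CPM. Glul fell by 1.79 in HBs (adjusted p = 0.034, held in 13 of 20 fits without 1 library) and was at 0.25 in livers, a difference of -2.04 (-3.40 to -0.68). Notum, a secreted enzyme that inactivates Wnt ligands, was read at 21.5, 50.5, 60.6, 60.8 and 62.9 CPM and 4.37, 10.1, 13.9, 22.7 and 35.4 CPM in HBs, a fall of 1.57 (adjusted p = 0.024, lost without s2138, s2139, DT3167 or DT2270), and was at -0.39 in livers. Of 22 β-catenin targets tested, these 2 fell in HBs (2.16% of all genes did), 0 rose, and 0 were called in livers (2.34% of all genes). The medians of the list were -0.74 in HBs and -0.28 in livers. In the fit of the HB groups alone both falls missed the threshold (adjusted p = 0.21 for Glul and 0.17 for Notum). Igf2, a fetal growth factor, was called higher in HBs (3.86, adjusted p = 0.035) where DT2277 stood at 976 CPM. The remaining DDDA HBs ranged over 8.78 to 73.2 CPM and the standard diet HBs over 4.62 to 22.2 CPM. The call was lost without DT2277 and without any standard diet HB.

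The study examined a desaturase and a palmitoyltransferase gene of the sphingolipid list. Of the 21 genes of this list, 4 rose in HBs (2.53% of all genes did) and 1 in livers (1.44%). Those that rose in HBs were Degs1, the desaturase that makes ceramide, Asah1 and Asah2, ceramidases that degrade it, and Sgpl1, the lyase that breaks down sphingosine 1-phosphate. Asah1 rose by 0.46 in HBs and 0.48 in livers (adjusted p = 0.027 and 0.034, held in 17 and 12 of 20 fits), with a difference of -0.02 (-0.36 to 0.32). Degs1 rose in HBs from 80.1 ± 8.47 to 113 ± 28.4 CPM (0.50, adjusted p = 0.035, held in 14 of 20 fits) and was at 0.34 in livers (adjusted p = 0.18), a difference of 0.16 (-0.23 to 0.55). With each tissue fitted alone, Degs1 was called in livers (adjusted p = 0.038) and not in HBs (adjusted p = 0.18). The HB call of Asah1 was also lost in the fit of the HB groups alone (adjusted p = 0.16). Sptlc2, which encodes part of serine palmitoyltransferase, had a value of 0.48 ± 0.18 in HBs (adjusted p = 0.14) and 0.27 ± 0.19 in livers (adjusted p = 0.51). The study reports significant increases of Degs1 and Sptlc2 in DDDA HBs from FPKM values, a measure unlike the counts fitted here.

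Mif, macrophage migration inhibitory factor, was read at 48.7, 57.5, 66.1, 69.2 and 88.5 CPM in standard diet HBs and 82.4, 97, 110.5, 111 and 213 CPM in DDDA HBs, the highest being DT2264. It rose by 0.90 ± 0.22 in HBs (adjusted p = 0.028, lost without s1758 or s2138) and was at 0.32 in livers (adjusted p = 0.5), with a difference of 0.57 (-0.08 to 1.23). Without DT2264 the rise was 0.61 (adjusted p = 0.034). Ccl9, a chemokine, rose in HBs, from a range of 12.3 to 43.4 CPM to one of 40.2 to 82.8 CPM (1.27, adjusted p = 0.014) and was at -0.17 in livers, a difference of 1.44 (0.63 to 2.25). These 2 were the inflammatory mediators called, of 20 tested (2.53% of all genes rose in HBs), and 0 were called in livers (2.34% of all genes). In the fit of the HB groups alone both missed the threshold (adjusted p = 0.17 for Mif and 0.14 for Ccl9).

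The largest fold changes shared by both tissues lay in a pair of gene families whose members overlap or resemble each other. Of 11 γ-protocadherins tested, cell adhesion genes that share their last exons, 8 rose in HBs, 4 in livers and 4 in both. Over all genes tested 2.53%, 1.44% and 0.462% did. Livers read Pcdhgc3 at 0.38 to 0.83 CPM on the standard diet and 10.7 to 17.6 CPM on DDDA, and HBs at 0.43 to 0.954 and 5.38 to 73.7 CPM, rises of 4.32 and 5.07. How reads of the shared exons were assigned was not given in the sources used here, and column names mark only the standard diet reads as trimmed pairs, which cannot be told apart from diet. Of 21 replication-dependent histone genes tested, 2 fell in HBs (2.16% of all genes did) and 1 in livers (0.896%). Hist1h2ao, which fell in both tissues, was read at 33.9 to 87.3 CPM in standard diet HBs and at most 0.391 CPM in DDDA HBs. It had 304 counts over the 5 standard diet livers and 0 in all 5 DDDA livers, at least 114-fold lower by a floor of 3 counts over the group. Transcripts of such histones lack the poly-A tail by which mRNA was captured, and histone gene copies resemble each other.

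The other metabolic lists gave few calls in either tissue, and their named members were chosen after their values were seen. Over all genes tested 2.53% rose and 2.16% fell in HBs, and 1.44% rose and 0.896% fell in livers. Of 19 ω-oxidation genes, Cyp4a31 rose in livers (2.27) and was at 1.17 in HBs. Of 30 genes of lipid droplets and fatty acid uptake the calls were the liver falls of G0s2 and Angptl8, and of 21 genes of de novo lipogenesis Insig2, a retention factor of the cholesterol sensor, rose in livers (0.70) and was at 0.15 in HBs. Of 23 genes of bile acid synthesis and transport, Abcc3 rose in HBs and Cyp39a1 in livers. Of 29 CAR and PXR targets, genes of xenobiotic metabolism, Aldh1a7 rose in HBs (1.74, against 0.80 in livers), and Aldh1a1 and Gstm1 rose in livers. The medians of that list were 0.57 in HBs and 0.18 in livers. Of 19 genes of gluconeogenesis and glycogen the call was that of Igfbp1 in livers, and of 16 genes of peroxisome biogenesis, 49 of urea cycle and amino acid catabolism and 27 of the unfolded protein response there were 0 calls in either tissue. DESeq2 called 2, 0 and 1 genes of these 3 lists in HBs and 1, 0 and 0 in livers, and the unadjusted p was under 0.05 for 4, 2 and 6 in HBs and 4, 1 and 2 in livers.

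Trp53inp1, a stress gene that p53 induces, was the member of 20 p53 targets called in both tissues, with rises of 0.70 in HBs and 0.81 in livers and a difference of -0.11 (-0.67 to 0.45). Over all genes tested, 4.69% were called in HBs, 2.34% in livers and 0.903% the same way in both. Of 19 circadian clock genes, Bhlhe40 in HBs was the call. The 36 cell cycle, 25 cholesterol synthesis, 30 interferon response and 22 YAP target genes gave 0 calls in either tissue. DESeq2 called 1 interferon response gene in HBs and 1 YAP target in livers among them. The unadjusted p was under 0.05 for 1, 6, 3 and 0 of them in HBs and for 1, 5, 1 and 2 in livers. Their medians in HBs were 0.21, 0.73, -0.27 and 0.02, and in livers -0.52, 0.52, 0.31 and -0.24. Without DT2264, 8 genes of cholesterol synthesis rose in HBs and 0 in livers, in a fit with more calls over all genes in both tissues. Among the lists of cell type markers, Igf2 and Glul of the hepatoblastoma and fetal liver list were the called genes. The medians of stellate cell and fibroblast markers were 0.92 in HBs and -0.11 in livers with DT2264, and -0.25 in HBs without it.

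**Figure D5:**
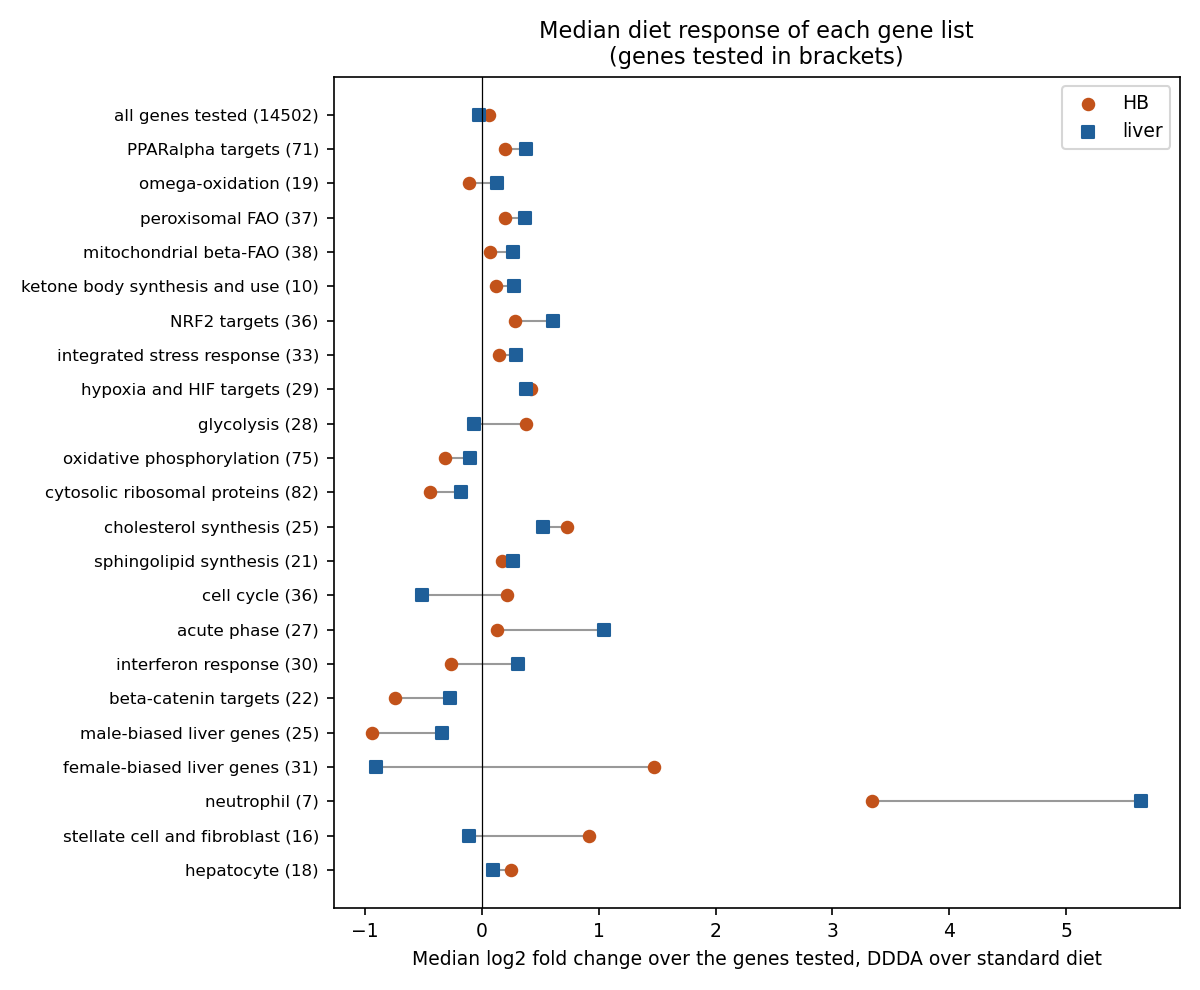
Median log2 fold change of DDDA over standard diet (x axis) over the tested genes of each list, in HBs (orange circles) and livers (blue squares), with the number of genes tested in brackets and all genes tested in the top row. HBs lie above livers for glycolysis (0.38 and -0.06) and below them for NRF2 targets (0.28 and 0.61). The liver median of the acute phase list fell without DL02. The HB medians of glycolysis, hypoxia and HIF targets, and stellate cell and fibroblast markers fell without DT2264.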

How the data were processed

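RNA was isolated with Qiagen columns from livers and HBs, and libraries were made from poly-A RNA with a directional kit. The deposited values are the authors' whole-number counts per gene, made per library from reads on GRCm38.p6, and RPKM columns in the same table, also made by the authors. The study names CLC Genomics Workbench. The sources used here state neither its version nor how reads were assigned or whether strand was used, so that reads of antisense or overlapping genes cannot be told apart. The RPKM columns served only to recover exon lengths. Columns of the authors' own comparisons (group means, fold changes, p-values and corrected p-values) were not used, and 0 columns of sample values were left without a sample. All 13 mitochondrial mRNA genes were at 0 in every library.

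Groups came from the labels. As nothing says that libraries of a group came from separate mice, the p-values measure only the spread between these libraries. Counts of 20 libraries were fitted with edgeR 4.0.16 (R 4.3.3): filterByExpr, TMM, the quasi-likelihood F-test with 1 mean per group and Benjamini-Hochberg adjustment over 14502 genes. CPM used TMM library sizes (gene totals of 16548771 to 29783324). Alternatives were DESeq2 1.42.0, RLE factors, no filter on low counts, a robust prior, sex as a covariate, females only, fits of 2 groups, fits without 1 or 2 libraries, a narrower interval (0.5), and removal of a lowess trend (span 0.3) of fold change against exon length. The fit without DL02 and DT2264 was chosen after seeing the marker levels. Scripts were tested on simulated counts. Promoters came from a RefSeq table of GRCm38.p6 that holds part of the genes.

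The genes and lists were chosen with earlier results of these data known. The rule for named genes took those past the threshold for the difference (0 genes), those called in opposite directions (0), the 8 that rose and the 8 that fell most in both tissues (16), and those the study names (8). The 16 were ranked only among genes called the same way with the interval of the difference within 1 log2 unit. They also had at least 5 CPM in 1 group and were not predicted genes. The other named genes were chosen after their values were seen.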

Additional observations from a re-analysis of the deposited data

Results flagged for a closer look

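In 25 of 376 groups of 5 libraries (73 named genes and 21 lists), 1 library stood apart from the other 4 by Dixon's test at the 95% level, which chance alone does in about 1 of 20 groups. Gene values below are in CPM, and list values are mean log2 levels. Among DDDA livers, DL02 was highest for Saa1 (5427, with 11.2 to 46.4 in the others) and Saa2 (3743, with 3.17 to 24.9) and lowest for Acot1 (27.7, with 62.5 to 78.9) and Hsd17b11 (242, with 340 to 377), a hydroxysteroid dehydrogenase. Its list levels stood out for acute phase (10.74), cell cycle (2.53), neutrophil markers (4.14) and, lowest, peroxisomal FAO (7.69). DL01 was highest for Srxn1 (354, with 75.6 to 88.8) and for cholangiocyte and progenitor markers (2.33). DL05 was highest for Lsm7 (14.0, with 10.0 to 10.9) and pancreatic acinar markers (2.84, with 0.74 to 1.29) and lowest for Sgk1 (21.1, with 33.8 at the top of the others). DL03 alone had reads of Rtn4r (0.0609).

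Among DDDA HBs, DT2264 was highest for cytosolic ribosomal proteins (8.16, with 7.34 to 7.57) and smooth muscle markers (4.53, with 0.50 to 1.47) and lowest for peroxisomal FAO (5.50, with 6.36 to 6.62). DT2270 was highest for Cd36 (302, with 167 to 197) and Fgf21 (23.5, with 4.53 to 6.65). Among standard diet HBs, s1758 was highest for Tubb2b, a β-tubulin (65.5, with 14.2 to 18.0), and lowest for Notum (21.5, with 50.5 to 62.9) and Rtn4r (0.396, with 0.537 to 0.574). HB s1800 was lowest for G0s2 (6.25, with 11.2 to 13.5) and s2139 highest for Bhlhe40 (108, with 61.8 to 66.7). The standard diet liver c1 was lowest for Tubb2b (0.456, with 1.36 to 1.62). No explanation of these values was tested.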

How the results depend on the processing

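The difference between the tissues was called for 0 genes in most alternatives, for 11 genes (7 higher and 4 lower in HBs) by DESeq2 and for 25 (10 and 15) without DT2264 and DT2277. DESeq2 also gave 1432 calls in HBs, 838 in livers, 323 the same way in both and 262 of these with the interval of the difference within 1. Without DT2264 and DT2277 these counts were 1967, 573, 250 and 218, with 1 gene called in opposite directions. Without DL02 and DT2264, chosen after seeing the data, 1266 genes were called in HBs, 208 the same way in both and 174 of these within 1. Without the libraries of the third flow cell, DL03 and DT3168, 122 were called in livers, 60 the same way in both and 50 within 1. With no filter on low counts, 222 were called in livers and 87 the same way in both. With sex as a covariate, 203 were called the same way in both, 178 of these within 1, and 1 (Qpct) in opposite directions, and HB calls were 647 higher and 347 lower. Females only left 5 calls in HBs, 2 in livers, 0 the same way in both and 0 within 1, on fewer libraries. Fits of 2 groups gave 42 HB and 940 liver calls. The narrower interval left 72 genes. With the length trend removed, HB calls were 428 higher and 207 lower and shared 491 of the 680 genes.

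Leaving out 1 library at a time gave 0 to 1 genes for the difference, 288 to 1238 in HBs, 116 to 591 in livers, 62 to 255 the same way in both, 51 to 221 within 1, and 0 to 1 in opposite directions. Medians over all genes moved by less than 0.1 in every setting. Of the values of named genes that were called or lay more than 1 SE from 0, 17 changed sign. With females only these were the difference of Atp5k (0.34), Hadhb (0.053), Ndufs6 (0.32) and Rpl35a (0.45) and the HB values of Fgf21 (-0.089), Gclc (-0.029), Saa2 (0.049), Fabp1 (0.71) and Aldh1a1 (-0.045). The median difference over PPARα targets went from -0.24 to 0.08 with females only, that over oxidative phosphorylation from -0.20 to 0.36 and that over cytosolic ribosomal proteins from -0.22 to 0.17. With the length trend removed the values that changed sign were the difference of Atp5k (0.067) and the HB value of Fabp1 (0.26). Without DL02, and without DL02 and DT2264, the liver values became -1.67 and -1.67 for Saa1 and -1.31 and -1.31 for Saa2, and the difference of Lcn2 1.09 and 1.13. Over all fits without 1 library the liver value ranged from -1.67 to 4.98 for Saa1 and from -1.31 to 5.39 for Saa2, and the difference of Lcn2 from -4.74 to 1.09. The causes were not tested. No paired analysis was possible because the labels give the groups no shared replicate numbers. Levels under about 1 CPM, such as those of Fgf21 in standard diet livers, rest on few counts.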
